A study of Homo sapiens with 8 samples.

Results

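Steroid receptors and the coregulators of the estrogen receptor were followed through 8 arrays of T47D cells, an established luminal breast cancer line that grows in response to estrogen. The set was chosen by name and holds 9 genes: ESR1, ESR2, PGR, NR3C1, GPER1, NCOA1, NCOA2, NCOA3 and NRIP1. Earlier results of these data were known when it was chosen. Counts of members beside the share of all probe sets are thus descriptions and no test of the set. Of these, 8 had a probe set carrying their symbol alone, out of 18417 genes with such a probe set, and the expression of NCOA3 was not analysed here. ESR1 had 2 such probe sets, and the brighter one is used unless the other is named.

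The estrogen receptors α and β, encoded by ESR1 and ESR2, are ligand-activated transcription factors that bind estrogen response elements in DNA, whereas GPER1 encodes a membrane receptor coupled to G proteins. PGR encodes the progesterone receptor, a standard readout of estrogen receptor activity in breast cells, and NR3C1 the glucocorticoid receptor. NCOA1, NCOA2 and NCOA3 encode the p160 coactivators, which bind liganded receptors and recruit histone acetyltransferases. NRIP1 encodes RIP140, a corepressor that binds liganded estrogen receptor and is itself known as an estrogen-induced gene.

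There were 4 groups of 2 arrays, 1 from each of 2 independent cell cultures: siRNA against 17β-HSD1 with estradiol (E2), the same siRNA with vehicle, control siRNA with E2, and control siRNA with vehicle. 17β-HSD1, the product of HSD17B1, reduces estrone to estradiol. All groups were kept for 2 days in charcoal-treated, steroid-deprived medium and then transfected with 200 nM siRNA, a mix of 3 sequences against 17β-HSD1 or a scrambled control. After 48 h they received 1 nM E2 or ethanol for 2 days, so the vehicle cells too were deprived of steroid and transfected.

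Values are log2 signals of Affymetrix Human Gene 1.0 ST probe sets, with array medians of 7.25 to 7.37 and lower quartiles of 5.85 to 5.99. Probe sets respond differently to the same amount of RNA, so each gene is compared with itself and no order between genes is read. As a rough check of the line, mean signals of the 10 luminal epithelial markers ran from 10.2 to 13.4. Those of 6 basal and myoepithelial markers ran from 6.30 to 7.81, of 7 fibroblast markers from 5.00 to 8.86, of 5 immune markers from 4.62 to 7.23 and of 4 endothelial markers from 5.81 to 6.81. No marker of any of these lists passed the test in either averaged comparison. Replicate 1 of 17β-HSD1 siRNA with vehicle had the lowest mean correlation with the other arrays, 0.976 against 0.984 to 0.988. HSD17B1 itself had a signal of 8.32 to 8.41 in the 4 arrays with 17β-HSD1 siRNA, against 8.56 to 9.35 in the 4 with control siRNA. The groups did not overlap, but the difference of -0.56 ± 0.16 (SE) did not pass the test (limma adjusted p = 0.221). With control siRNA the signals were 9.35 in vehicle and 9.12 in E2 for replicate 1, but 8.66 and 8.56 for replicate 2. The gap to 17β-HSD1 siRNA was therefore smaller in replicate 2 than in replicate 1.

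PGR and NRIP1 are the 2 members whose E2 arrays all lay above all vehicle arrays, so the 250 bases before the most upstream RefSeq start of each are shown, on the gene's strand (GRCh38.p14). Capitals mark a GC box (GGGCGG on either strand), the site bound by Sp1.
PGR, chr11:101129814-101130063, minus strand: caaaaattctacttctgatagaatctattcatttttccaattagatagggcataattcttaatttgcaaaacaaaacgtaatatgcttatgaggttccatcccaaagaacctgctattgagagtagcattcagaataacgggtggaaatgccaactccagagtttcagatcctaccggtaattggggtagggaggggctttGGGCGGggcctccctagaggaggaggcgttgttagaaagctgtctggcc
NRIP1, chr21:15065937-15066186, minus strand: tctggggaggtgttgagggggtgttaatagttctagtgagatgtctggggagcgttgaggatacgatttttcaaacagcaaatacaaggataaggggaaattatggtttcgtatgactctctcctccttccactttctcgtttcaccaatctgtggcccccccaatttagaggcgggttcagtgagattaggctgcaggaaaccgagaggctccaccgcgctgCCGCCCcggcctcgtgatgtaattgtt

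The full estrogen response element palindrome (GGTCANNNTGACC) was searched on both strands in windows of 250 bases before to 50 after each RefSeq start, and so was a single arm of it (GGTCA), which the palindrome contains. The search covered 30 windows of 8 of the 9 named genes, NCOA3 included and NCOA2 not. The palindrome was in 0 of these 30 windows, and in 0.057% of all 35116 windows. The single arm was in 8 of the 30 windows, belonging to ESR1, ESR2, NR3C1, NRIP1 and PGR, and in 37.4% of all windows. GC boxes were in 19 of the 30 and in 45.0% of all, and an AP-1 site (TGANTCA) was in 1 of the 30, for NR3C1, and in 7.71% of all. For PGR and NRIP1 the single arms lay before starts further downstream than those above. They are shown in capitals, as read on the other strand, with 12 bases on each side.
PGR, chr11:101129227-101129255, minus strand: aagggcaggagcTGACCagcgccgccctc
NRIP1, chr21:15065154-15065182, minus strand: gcggcttcctccTGACCgggtgacaatgg
These matches describe the letters of the windows only, and the arrays give no measure of binding there.

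The first comparison asks which of these genes respond to E2. PGR rose and no other member passed the test: 1 of 8 was called, where 1.55% of the 21214 probe sets tested were called in either direction and 1.32% as higher. PGR had signals of 10.98 and 11.30 with 17β-HSD1 siRNA and E2, against 10.04 and 10.16 with 17β-HSD1 siRNA and vehicle. With control siRNA it had 10.91 and 11.41 in E2, against 10.13 and 10.10 in vehicle. All 4 E2 arrays thus stood clear of all 4 vehicle arrays, with means of 11.15 ± 0.24 and 10.11 ± 0.052 (SD, n = 4 each). Averaged over the siRNAs, PGR rose 2.06-fold with E2 (95% interval 1.68 to 2.51, log2 change 1.04 ± 0.13 SE, limma adjusted p = 0.00324). As each array averages a whole culture, more RNA per cell and more cells expressing the gene cannot be told apart.

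NRIP1 was the other member with no overlap between media. Its signals were 8.99 and 9.06 with 17β-HSD1 siRNA and E2, against 8.63 and 8.72 with that siRNA and vehicle, and 8.96 and 9.24 with control siRNA and E2, against 8.71 and 8.45 with control siRNA and vehicle. Members higher in E2 without overlap were thus 2 of 8, where 2.94% of all probe sets tested showed this. The averaged difference for NRIP1 was 0.44 ± 0.11 on the log2 scale, 1.35-fold (1.14 to 1.61), and did not pass the test (limma adjusted p = 0.107).

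ESR1, the gene of estrogen receptor α, was also higher on average in E2, with overlap. Its signals were 8.61 and 8.96 with 17β-HSD1 siRNA and E2, and 8.05 and 8.47 with 17β-HSD1 siRNA and vehicle. With control siRNA they were 8.89 and 9.13 in E2, and 8.60 and 8.77 in vehicle. Within each siRNA both E2 arrays lay above both vehicle arrays, but the lower E2 array with 17β-HSD1 siRNA was below the higher vehicle array with control siRNA. The averaged E2 difference was 0.43 ± 0.13, or 1.34-fold (1.10 to 1.65), with a limma adjusted p of 0.230. It was 0.32 without replicate 1 of 17β-HSD1 siRNA with vehicle, and 0.53 without replicate 2 of that group. A further ESR1 probe set, drawn from another transcript record, differed by -0.08 ± 0.12 in the same comparison (adjusted p = 0.979), with signals of 6.52 to 6.91 over the 8 arrays. The second probe set's 95% interval, -0.33 to 0.17, included 0, and the mean over both probe sets was 0.17 higher in E2.

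The remaining receptors and the coactivators had E2 differences between -0.18 and 0.03 on the log2 scale. ESR2 differed by 0.03 ± 0.10, with signals from 5.90 to 6.12 over all arrays, near the arrays' lower quartiles of 5.85 to 5.99. A change in signal above 1.19-fold or below 0.880-fold lay outside its 95% interval. For so dim a probe set the interval bounds the signal and not the amount of RNA. GPER1 differed by -0.05 ± 0.14. NR3C1 differed by -0.18 ± 0.17 and its interval, 0.685-fold to 1.14-fold, was the widest of the members on the log2 scale. NCOA1 differed by 0.02 ± 0.13 and NCOA2 by -0.06 ± 0.11. Their limma adjusted p-values were between 0.955 and 0.996. Over the 8 members the median E2 difference was 0.03, beside -0.02 over all probe sets tested, and 3 of 8 (PGR, NRIP1 and ESR1) had an unadjusted p below 0.05, where 8.89% of all probe sets did.

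**Figure D1:**
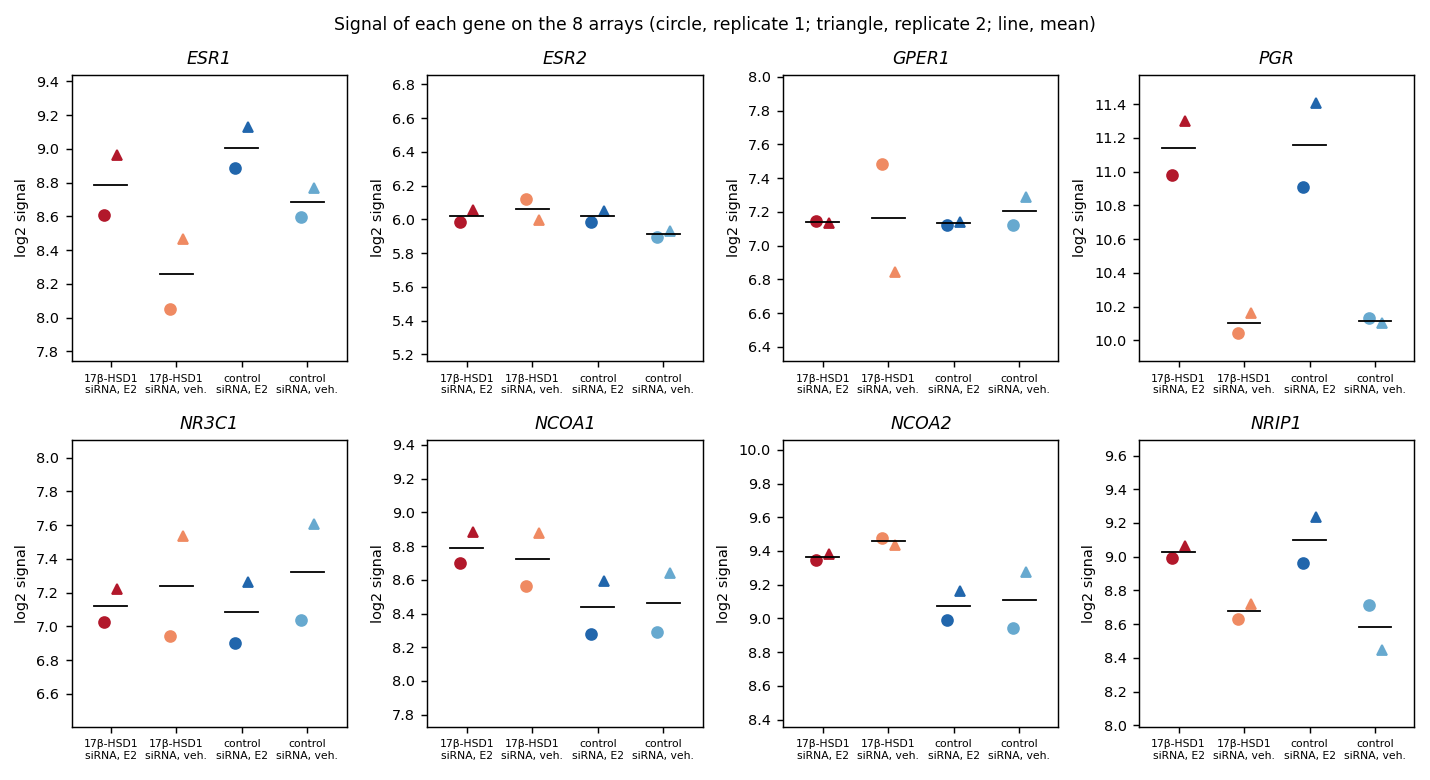
Log2 signal of the 8 members with a probe set on each array, by group (red, 17β-HSD1 siRNA; blue, control siRNA; darker shade, E2; circles and triangles, replicates 1 and 2; black line, mean of 2 arrays). Every panel spans the same number of log2 units. PGR and NRIP1 are higher on all 4 E2 arrays, NCOA2 on all 4 arrays with 17β-HSD1 siRNA.

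The second comparison asks whether the receptors or their coregulators differ between 17β-HSD1 siRNA and control siRNA. With the media averaged, 0 of 8 members passed in limma, where 0.457% of probe sets did. At an unadjusted p below 0.05 there were 3, ESR1, NCOA1 and NCOA2, where 9.44% of probe sets had such a p. Leading values were positive for both p160 coactivators and negative for ESR1.

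NCOA2, which encodes GRIP1 or SRC-2, had signals of 9.35 and 9.38 with 17β-HSD1 siRNA and E2, against 8.99 and 9.16 with control siRNA and E2. In vehicle it had 9.48 and 9.44 with 17β-HSD1 siRNA, against 8.94 and 9.28 with control siRNA. All 4 arrays with 17β-HSD1 siRNA were above all 4 with control siRNA, which 2.24% of probe sets showed. The averaged difference of 0.32 ± 0.11, or 1.25-fold (1.05 to 1.48), did not pass the test (limma adjusted p = 0.340).

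NCOA1, which encodes SRC-1, had signals of 8.70 and 8.88 with 17β-HSD1 siRNA and E2, against 8.28 and 8.59 with control siRNA and E2. In vehicle its signals were 8.56 and 8.88 with 17β-HSD1 siRNA, against 8.29 and 8.64 with control siRNA. Here the groups overlapped, since the lowest array with 17β-HSD1 siRNA was below both replicates 2 with control siRNA. Within each culture and medium it was higher with 17β-HSD1 siRNA in all 4 pairs, by 0.24 to 0.42, as was NCOA2, by 0.16 to 0.54, and as were 9.34% of probe sets. Its averaged difference was 0.31 ± 0.13, or 1.24-fold (1.01 to 1.51, adjusted p = 0.481).

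For ESR1 the averaged siRNA difference was -0.32 ± 0.13, or 0.800-fold (0.652 to 0.980, adjusted p = 0.463). In vehicle it was -0.42 ± 0.19 and in E2 -0.22 ± 0.19. Its lowest signal belonged to replicate 1 of 17β-HSD1 siRNA with vehicle, the array with the lowest correlation to the rest. Leaving out single arrays moved the averaged value between -0.43 and -0.22, the ends being without replicate 2 and without replicate 1 of that group. The value in vehicle then ran from -0.63 to -0.21. Within each culture and medium ESR1 was lower with 17β-HSD1 siRNA in all 4 pairs, with differences of -0.55 to -0.16, which 9.47% of probe sets showed. The other ESR1 probe set differed by -0.15 ± 0.12.

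PGR, the member that rose with E2, differed by -0.02 ± 0.13 with 17β-HSD1 siRNA (0.810-fold to 1.21-fold). NRIP1 differed by 0.01 ± 0.11, NR3C1 by -0.02 ± 0.17, GPER1 by -0.02 ± 0.14 and ESR2 by 0.07 ± 0.10, with limma adjusted p-values from 0.929 to 0.995 over these genes. The value for GPER1 averages unlike arrays: in 17β-HSD1 siRNA with vehicle its signals were 7.49 and 6.84, the highest and lowest of all 8. Without the first of these arrays the difference was -0.18, and without the second 0.14. Within a single medium 0 of 8 members passed, as did 0% of all probe sets, in vehicle and in E2 alike. At an unadjusted p below 0.05 there were 1157 probe sets (5.45%) in vehicle, ESR1 and NCOA2 among them, and 977 (4.61%) in E2, with 0 members.

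**Figure D2:**
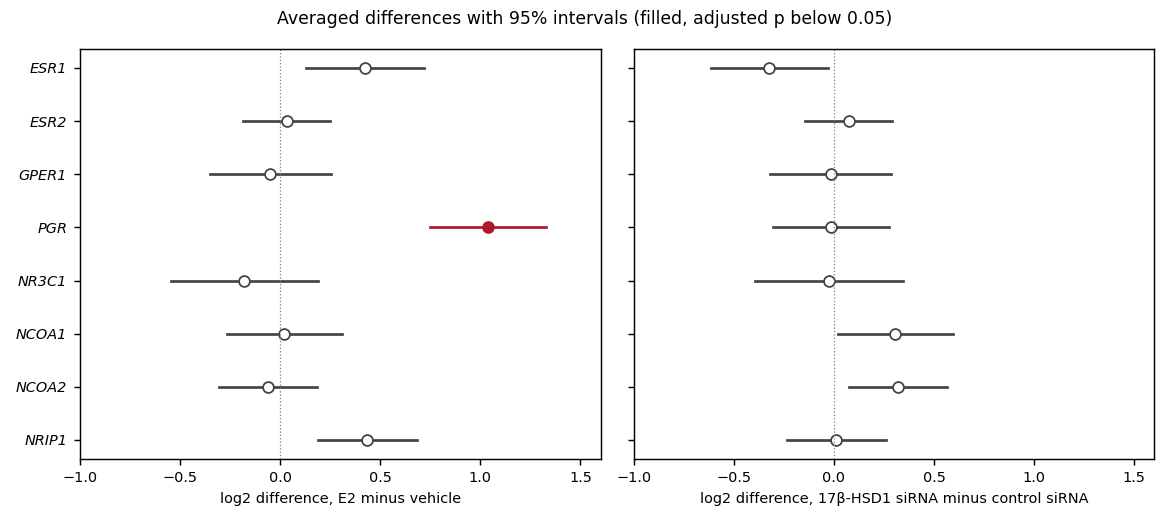
Log2 differences of the 8 members with 95% intervals, E2 minus vehicle on the left and 17β-HSD1 siRNA minus control siRNA on the right, each 4 arrays against 4 (filled red, adjusted p below 0.05; open, above it). PGR with E2, at 1.04, is the filled point.

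The third comparison asks whether the E2 response differs after 17β-HSD1 siRNA. For PGR the E2 difference was 1.04 ± 0.19 with 17β-HSD1 siRNA and 1.04 ± 0.19 with control siRNA, 2.05-fold and 2.06-fold. Neither passed on its own (limma adjusted p = 0.0552 and 0.0675), in comparisons that called 0.269% and 0.0848% of probe sets. With the culture number as a block, both passed, with adjusted p of 0.0181 and 0.0236, where 0.523% and 0.599% of probe sets did. At an unadjusted p below 0.05 there were 3 members with 17β-HSD1 siRNA (PGR, ESR1 and NRIP1), where 4.52% of probe sets were, and 2 with control siRNA (PGR and NRIP1), where 5.94% were. The interaction for PGR was -0.00 ± 0.26, with a 95% interval of -0.58 to 0.57. The E2 response with 17β-HSD1 siRNA could thus be 0.667 to 1.49 times that with control siRNA, and no difference was detectable within these limits.

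NRIP1 had an E2 difference of 0.35 ± 0.16 with 17β-HSD1 siRNA and 0.52 ± 0.16 with control siRNA, an interaction of -0.17 ± 0.23. ESR1 had 0.52 ± 0.19 with 17β-HSD1 siRNA and 0.33 ± 0.19 with control siRNA, an interaction of 0.20 ± 0.27. Without replicate 1 of 17β-HSD1 siRNA with vehicle, ESR1 had an E2 difference of 0.32 with that siRNA and an interaction of -0.01. Without replicate 2 of that group they were 0.73 and 0.41. The remaining members had interactions between -0.14 and 0.12. In limma 0 of 8 members, and 0% of probe sets, passed, each member with an adjusted p of 1. There were 140 probe sets (0.66%) with an unadjusted p below 0.05, none of them for a member.

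**Figure D3:**
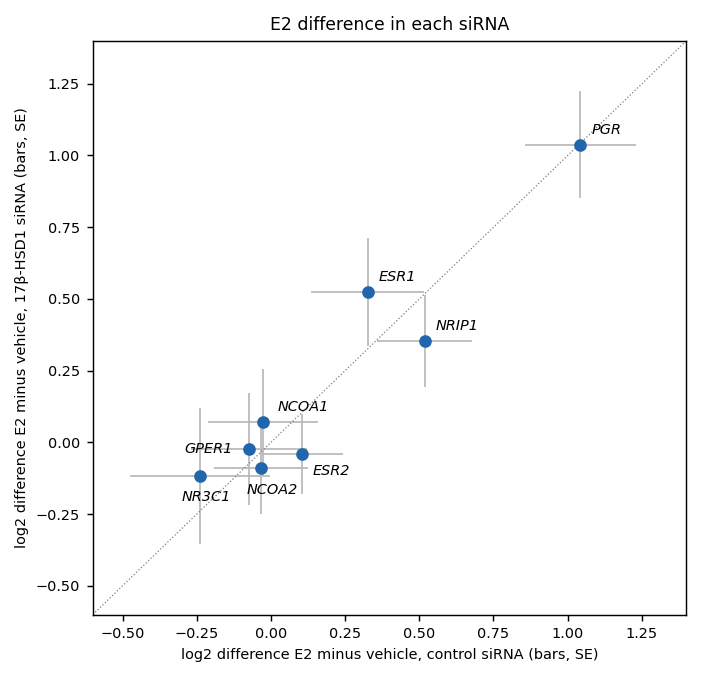
E2 minus vehicle log2 difference of each member with 17β-HSD1 siRNA (vertical) and with control siRNA (horizontal), with SE bars, 2 arrays against 2 on each axis. The dotted line marks equal differences. PGR lies on the line at 1.04 on both axes, and ESR1 and NRIP1 lie above 0 on both, on either side of the line.

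Levels of a gene can be ordered over the 4 groups. For PGR the E2 groups, at means of 11.14 with 17β-HSD1 siRNA and 11.16 with control siRNA, stood above the vehicle groups, at 10.10 with 17β-HSD1 siRNA and 10.12 with control siRNA, and neighbours within a medium did not differ beyond their spread. ESR1 ran from 8.26 with 17β-HSD1 siRNA and vehicle, through 8.68 with control siRNA and vehicle and 8.78 with 17β-HSD1 siRNA and E2, to 9.01 with control siRNA and E2. Each of these neighbours had an adjusted p above the threshold or overlapping arrays. For NRIP1 the vehicle groups, at 8.58 with control siRNA and 8.68 with 17β-HSD1 siRNA, came before the E2 groups, at 9.03 with 17β-HSD1 siRNA and 9.10 with control siRNA. NCOA2 was ordered by siRNA instead, at 9.46 in vehicle and 9.37 in E2 with 17β-HSD1 siRNA, above 9.11 in vehicle and 9.07 in E2 with control siRNA, and E2 and vehicle differed by -0.09 ± 0.16 with 17β-HSD1 siRNA and by -0.03 ± 0.16 with control siRNA.

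Cultures differed for some members as much as treatments did. NR3C1 was higher in replicate 2 than in replicate 1 in all 4 groups, by 0.20 to 0.59, with a mean gap of 0.43 beside its averaged E2 difference of -0.18. ESR1 was higher in replicate 2 by 0.17 to 0.42 and NCOA1 by 0.18 to 0.35, again in all 4 groups. This order, replicate 2 above replicate 1 in every group, held for 9.65% of all probe sets tested. With the culture number as a block the adjusted p of the averaged E2 difference was 0.0543 for ESR1 and 0.0826 for NRIP1. That of the averaged siRNA difference was 0.189 for ESR1, 0.205 for NCOA1 and 0.22 for NCOA2. With the block PGR was the 1 member called with E2, where 2.4% of probe sets were, and 0 were called with 17β-HSD1 siRNA, where 1.34% were.

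Over the 8 arrays, the genes whose signal followed PGR most closely were FMN1, CCDC18 and KCNH1, with Pearson r of 0.980, 0.977 and 0.977. NRIP1 was followed by RAPGEFL1 (0.956), ADCY9 (0.955) and PGR itself (0.945). The arrays share the E2 treatment, and FMN1, CCDC18, KCNH1, RAPGEFL1 and ADCY9 rose with E2 by 1.14, 0.72, 1.24, 1.22 and 0.63 on the log2 scale (limma adjusted p = 0.0158 or lower). ESR1 was followed by FAS (0.987), CTPS2 and TEX14, NCOA1 by GPR158 (0.992), XNDC1N and SLC6A14, and NCOA2 by R3HDM2 (0.989), YAP1 and INPP5A. NR3C1 was followed by ITPRID2 (0.977), RABL3 and BDH1, ESR2 by APOBEC3D (0.953), ACTE1P and SLCO1B3, and GPER1 by KIAA1755 (0.989), TIGIT and GLT6D1. None of the genes named for these 6 members passed in either averaged comparison. Each was picked as the closest of 18417 genes over 8 arrays, and the coefficients are given as a description.

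Genes around the members were taken as 6 lists. Among 5 measured steroid and estrogen-related receptors of 7 listed, 0 passed with E2 or with 17β-HSD1 siRNA in limma. PGRMC2, a membrane-associated progesterone receptor component, had the leading E2 value, -0.34 ± 0.12 (adjusted p = 0.296), and NR3C2, the mineralocorticoid receptor gene, had -0.19. The median E2 difference of the 5 was -0.13, with 4 below 0, beside -0.02 over all probe sets. Without replicate 1 of 17β-HSD1 siRNA with vehicle it was -0.02, again with 4 below 0, beside 0.01 over all probe sets. Among 29 further nuclear receptors of 35 listed, 0 passed in limma either. NR2F1, which encodes COUP-TFI, had -0.44 ± 0.14 with E2 (adjusted p = 0.217, or 0.0417 without replicate 1 of control siRNA with vehicle) and 0.42 ± 0.14 with 17β-HSD1 siRNA (adjusted p = 0.284). The list's median was -0.08 with E2, with 24 of 29 below 0, beside a median of -0.02 and 58.1% below 0 over all probe sets. With 17β-HSD1 siRNA it was 0.06, with 22 of 29 above 0, beside 0.01 and 54.4%. Without replicate 1 of 17β-HSD1 siRNA with vehicle the E2 median was -0.05, with 19 of 29 below 0. Over all probe sets it was then 0.01, with 45.7% below 0. The siRNA median without that array was 0.01, with 17 of 29 above 0, beside -0.03 and 42.1% over all probe sets.

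Of 39 measured coactivators, 1 rose with E2, beside 1.32% of all probe sets, and 0 passed with 17β-HSD1 siRNA, beside 0.457%. The 1 that rose was GREB1, an estrogen-induced cofactor of the estrogen receptor, with means of 10.45 ± 0.18 in E2 and 8.73 ± 0.29 in vehicle (SD, n = 4 each), a 3.28-fold rise (limma adjusted p = 0.000249). The list's median E2 difference was 0.01, beside -0.02 over all probe sets. Leading values with 17β-HSD1 siRNA were -0.44 for NCOA4, an androgen receptor coactivator and ferritin receptor, -0.34 for the histone demethylase gene KDM1A and 0.26 for the methyltransferase gene KMT2C (adjusted p = 0.306 to 0.454). NCOA4 had its lowest signal, 9.82, in replicate 1 of 17β-HSD1 siRNA with vehicle, and its value without that array was -0.28. Of 28 measured corepressors 0 passed in either comparison. Their median was 0.04 with E2, with 19 of 28 above 0, beside -0.02 and 41.9% over all probe sets. With 17β-HSD1 siRNA it was -0.13, with 19 of 28 below 0, beside 0.01 and 45.6%. Of the 28, 15 had their lowest signal in replicate 1 of 17β-HSD1 siRNA with vehicle, as did 4595 of the 21214 probe sets. Without that array the siRNA median was -0.12, with 21 of 28 below 0, beside -0.03 and 57.9%. The E2 median was then 0.03, with 19 of 28 above 0, beside 0.01 and 54.3%. NR2C2AP had 0.38 with E2 (adjusted p = 0.107), and the histone deacetylase gene HDAC2 had -0.35 with 17β-HSD1 siRNA (adjusted p = 0.349).

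Receptor chaperones keep steroid receptors able to bind ligand. Of 13 measured, 1 rose with E2, beside 1.32% of all probe sets: FKBP4, which encodes FKBP52, a cochaperone of the progesterone and glucocorticoid receptors. Its signals were 11.15 and 11.49 with 17β-HSD1 siRNA and E2, against 10.48 and 10.67 with that siRNA and vehicle, and 11.52 and 11.75 with control siRNA and E2, against 10.90 and 10.64 with control siRNA and vehicle. The groups did not overlap and the rise was 1.75-fold (0.81 ± 0.12, limma adjusted p = 0.00783), or adjusted p = 0.0559 without replicate 2 of 17β-HSD1 siRNA with E2. The list's median was 0.21 with E2, with 11 of 13 above 0, beside -0.02 and 41.9% over all probe sets. With 17β-HSD1 siRNA it was -0.24, with 12 of 13 below 0, beside 0.01 and 45.6%. All 13 had their lowest signal in replicate 1 of 17β-HSD1 siRNA with vehicle, the array that stood apart, as did 4595 of the 21214 probe sets. Without that array the E2 median was 0.14, with 10 of 13 above 0, beside 0.01 and 54.3% over all probe sets. The siRNA median was then -0.19, with 10 of 13 below 0, beside -0.03 and 57.9%. With 17β-HSD1 siRNA none of the 13 passed in limma. PTGES3, which encodes p23, had -0.51 ± 0.14 (adjusted p = 0.175) and HSP90AA1 had -0.42 ± 0.13. For PTGES3 the value was -0.65 (adjusted p = 0.0481) without replicate 2 of 17β-HSD1 siRNA with vehicle, which leaves the array that stood apart alone in its group, and -0.37 (adjusted p = 0.276) without replicate 1.

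Genes known to be induced through the glucocorticoid receptor gave 0 calls of 18 measured in either averaged comparison by limma. Their median was -0.10 with E2, beside -0.02 over all probe sets, and 0.03 with 17β-HSD1 siRNA, beside 0.01. Without replicate 1 of 17β-HSD1 siRNA with vehicle it was -0.04 with E2, beside 0.01 over all probe sets. TSC22D3, which encodes the glucocorticoid-induced leucine zipper protein, had the leading E2 value, -0.43 ± 0.12 (adjusted p = 0.138).

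**Figure D4:**
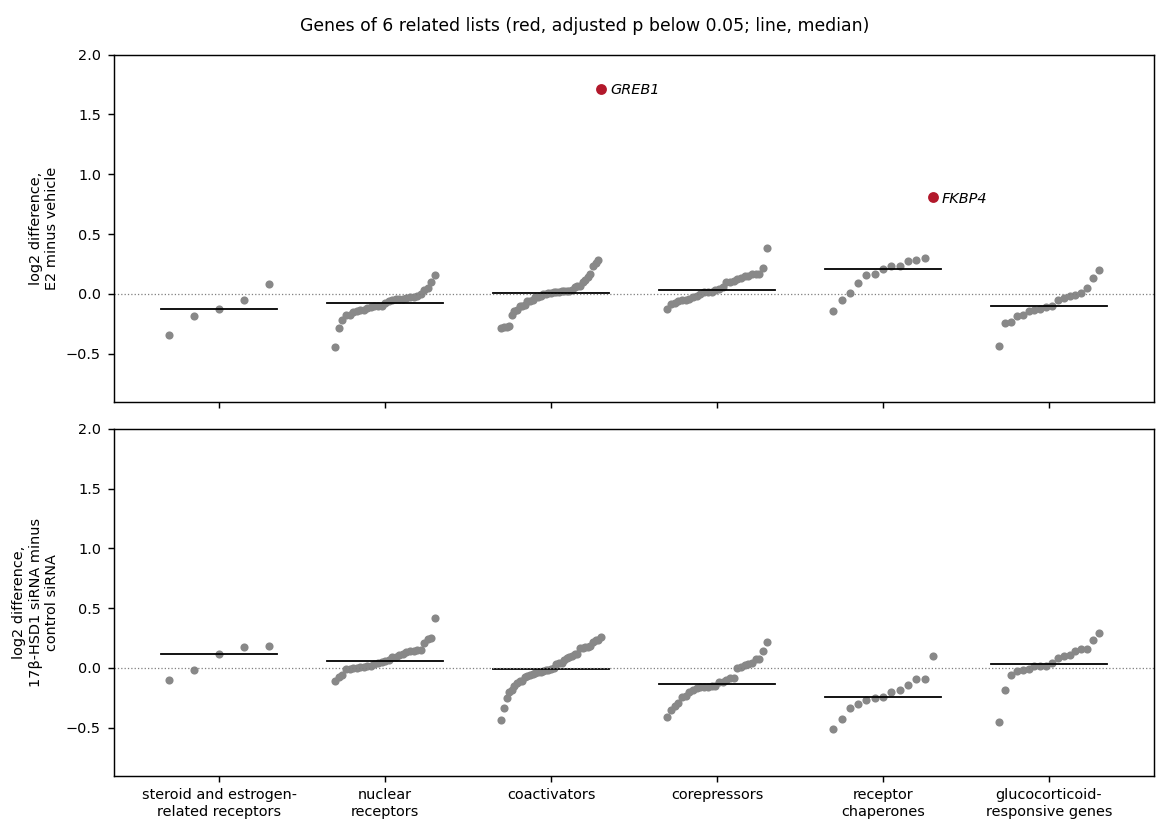
Averaged log2 differences of the measured genes of 6 lists, ordered within each list, E2 minus vehicle above and 17β-HSD1 siRNA minus control siRNA below (black line, list median; red, adjusted p below 0.05). GREB1 and FKBP4 are the only red points, both with E2.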

How the data were processed

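The authors deposited a table of 33297 probe sets on 8 arrays. Its values are on a log2 scale, as read from the deposited values. Per the labels' protocols, the RNA was amplified and hybridised to Affymetrix Human Gene 1.0 ST arrays. For summarisation, background correction and normalization, no method was given in the sources used. Values were used as deposited.

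Probe sets were named by the platform annotation, checked by gene ID against RefSeq. There were 19460 with 1 symbol, of which 19429 matched RefSeq by gene ID, 1754 with several and 12083 with none. The 21214 with a symbol were tested with limma 3.58.1 in R 4.3.3 (1 coefficient per group, eBayes), leaving 4 residual degrees of freedom per probe set. Calls were made at p below 0.05 after Benjamini-Hochberg adjustment over all of them. A gene with several probe sets was represented by its brightest. The number of arrays limits the precision.

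The rule for named genes covers every member, HSD17B1, in each list the called genes and up to 3 with the smallest p per averaged comparison, and for each member the 3 most correlated genes. Genes printed are those it names. Members and lists were chosen with earlier results of these data known.

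The labels trace the replicates to 2 independent cultures, so the number was taken as the culture. Deviations of same-numbered arrays from their group means correlated between 0.31 and 0.44 for 4 of 6 pairs of groups. Those of control siRNA with vehicle correlated at 0.01 and -0.20 with 17β-HSD1 siRNA in E2 and in vehicle. Promoter sequences are those of RefSeq (GRCh38.p14). The alternatives tried are given with their effect in the closing section.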

Additional observations from a re-analysis of the deposited data

How the results depend on the processing

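PGR passed as higher with E2, averaged over the siRNAs, under all 16 alternatives (filters, all probe sets, quantile normalization, a trended robust spread, the additive model, blocks, probe set means and leaving out each array), with log2 changes of 0.92 to 1.17 and adjusted p of 0.00103 to 0.0304. No other member was called under any of them in any comparison. The count of members called for E2 with control siRNA, 0, became 1 (PGR) with the replicate block and with the crossed block, in which the culture numbers of control siRNA with vehicle were exchanged (chosen after seeing the data). For E2 with 17β-HSD1 siRNA it became 1 with the replicate block, the crossed block, the trended robust spread and the fit on the 4 arrays compared, and was 0 to 1 when single arrays were left out (1 without either control siRNA, E2 array). The block changed no other call of a member, and raised the share of probe sets called to 2.4% for E2 and 1.34% for the siRNA, both averaged. Genes of the 6 lists called with E2, 2, became 1 with all probe sets of the table (FKBP4 lost) and were 1 to 3 when arrays were left out (NR2F1 gained). With 17β-HSD1 siRNA they were 0 to 1 (PTGES3). Of 881 member values under alternatives, 64 changed sign, each of a difference whose 95% interval included 0. ESR2, among the dimmest probe sets, was not tested under that filter. The number of arrays limits the precision: the averaged E2 differences of ESR1 (0.43) and NRIP1 (0.44) did not pass. The within-culture differences and the list medians without 1 array were also chosen after seeing the data.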

Other observations

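GREB1, the coactivator gene that rose with E2, was also read within each siRNA. Its E2 difference was 1.37 ± 0.17 with 17β-HSD1 siRNA and 2.06 ± 0.17 with control siRNA, and both passed (limma adjusted p = 0.0173 and 0.00140). The interaction was -0.69 ± 0.23, the lowest of the 39 measured coactivators. In limma it had an unadjusted p of 0.0128 and an adjusted p of 1, so a difference between the siRNAs did not pass. Of all probe sets tested, 0.66% had an unadjusted p below 0.05 for the interaction. In vehicle GREB1 had signals of 9.08 and 8.82 with 17β-HSD1 siRNA, against 8.65 and 8.38 with control siRNA. In E2 it had 10.20 and 10.43 with 17β-HSD1 siRNA, against 10.54 and 10.61 with control siRNA.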
